A study of Mus musculus with 4 samples.

Results

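The genes described here encode the enzymes that hydroxylate and crosslink collagen, namely the lysyl oxidases *Lox*, *Loxl1*, *Loxl2*, *Loxl3* and *Loxl4*, the lysyl hydroxylases *Plod1*, *Plod2* and *Plod3*, and the prolyl 4-hydroxylase α subunits *P4ha1* and *P4ha3*. They were chosen by name, as 10 of the 32286 genes counted, of which 28071 had at least 1 UMI (unique molecular identifier, a tag that marks 1 captured RNA molecule) in the cells kept. Single-cell RNA-seq was performed on lungs of mice given bleomycin, a drug that injures the lung and leads to fibrosis, at 0.8 U/kg into the trachea and taken at day 14. There were 2 *Tubb3*-/- mice, homozygous for a *Tubb3*-Cre knock-in placed at the start of translation of *Tubb3* (β-III tubulin), and 2 wild-type (WT) littermates, all 8 to 11 weeks old. All 4 mice had bleomycin, so the data hold no uninjured lung. Each mouse gave 1 library of whole lung cells, depleted of red blood cells by TER-119, and 1 library enriched for mural cells, the pericytes and smooth muscle cells that wrap vessels. For the latter, CD31+, CD45+, EpCAM+ and TER-119+ cells were removed, and sorted MCAM+ PDGFRα- and MCAM- cells were mixed 1:1. The cells of each kind were tagged per mouse and pooled across the 4 mice before sorting and capture. A library here is thus the part of such a pool that carries the tag of 1 mouse. Every p-value rests on 4 mice.

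Collagen chains are modified in the endoplasmic reticulum before they fold. Prolyl 4-hydroxylases turn prolines into hydroxyproline, which holds the triple helix together, and their α subunits carry the catalytic site and the peptide-binding site, while the β subunit is *P4hb*. Lysyl hydroxylases turn lysines into hydroxylysine, *Plod2* mainly in the telopeptides at the chain ends, and *Plod3* also adds sugars to hydroxylysine. Outside the cell, the copper-dependent lysyl oxidases oxidize lysine and hydroxylysine to aldehydes that form the crosslinks between collagen molecules, and crosslinks built on hydroxylysine are typical of stiff, scarred tissue.

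The promoters of the prolyl 4-hydroxylase α subunits *P4ha1* and *P4ha3* are shown because these 2 genes had unlike patterns over the lineages and genotypes. The table of RefSeq promoters used here had an entry for 5 of the 10 genes (*Plod1*, *Plod3*, *P4ha1*, *P4ha3* and *Loxl4*). Each sequence gives the 250 bases before the gene's start in GRCm38.p6, 5′ to 3′ on the gene's strand. Capitals mark the hypoxia response element cores ACGTG and GCGTG and the Sp1 GC-box core GGGCGG, on either strand, and neighboring GC-box cores share bases. *P4ha3* lies at chr7:100285270-100285519 (+) and *P4ha1* at chr10:59323046-59323295 (+).
P4ha3: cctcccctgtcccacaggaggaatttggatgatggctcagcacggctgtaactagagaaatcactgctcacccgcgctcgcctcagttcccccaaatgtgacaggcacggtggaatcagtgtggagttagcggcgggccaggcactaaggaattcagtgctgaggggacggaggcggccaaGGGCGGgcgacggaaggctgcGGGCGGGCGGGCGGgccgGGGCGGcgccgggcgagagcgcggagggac
P4ha1: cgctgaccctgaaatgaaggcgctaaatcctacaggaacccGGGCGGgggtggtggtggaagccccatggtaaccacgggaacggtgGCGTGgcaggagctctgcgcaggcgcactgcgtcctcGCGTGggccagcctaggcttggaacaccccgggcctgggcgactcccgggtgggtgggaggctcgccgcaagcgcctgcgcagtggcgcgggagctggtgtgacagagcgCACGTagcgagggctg
The *P4ha3* window held 5 GC-box cores and no ACGTG or GCGTG. The *P4ha1* window held 1 ACGTG, 2 GCGTG and 1 GC-box core. Among the 32851 mouse promoter windows of the same length, 16.6% held at least 1 ACGTG, 28.2% GCGTG and 32.7% GGGCGG. A single copy of each is thus common, and none of them is a measured binding site. The share of windows with 5 GC-box cores was not counted.

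Of 32121 deposited cells, 29891 were kept. A cell was assigned to a lineage by at least 1 UMI of *Ptprc* (immune), *Cdh5* (endothelial), *Epcam* (epithelial), *Msln* (mesothelial), *Higd1b* or *Myh11* (mural), or *Pdgfra* (fibroblast), and the 13587 cells (45.5%) that matched several were left out. This left 3784 fibroblasts, 4496 mural, 2272 endothelial, 320 epithelial, 322 mesothelial and 4353 immune cells. Fibroblasts were split by 1 or more UMIs of *Cthrc1*, a gene of matrix-producing fibroblasts in injured lung, into 956 Cthrc1+ and 2828 Cthrc1- cells. UMIs were summed per mouse and lineage and are given as counts per 1000000 UMIs of all genes (CPM), and values stand in the order WT 1, WT 2, *Tubb3*-/- 1 and *Tubb3*-/- 2 unless stated. *Tubb3* itself was lower in every *Tubb3*-/- library, at 0.262 to 0.789 CPM, than in the WT library of the same kind, at 0.868 to 5.49 CPM. Mouse 1 of each genotype had male and mouse 2 female levels of *Xist* and Y-linked genes. The 7 fibroblast check genes summed to 15672 to 18946 CPM in fibroblasts and the 9 mural check genes to 13902 to 16698 CPM in mural cells, and each other lineage had its own check genes. No barcode was shared between libraries of a pool, and 59 were shared between the pools.

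**Figure D1:**
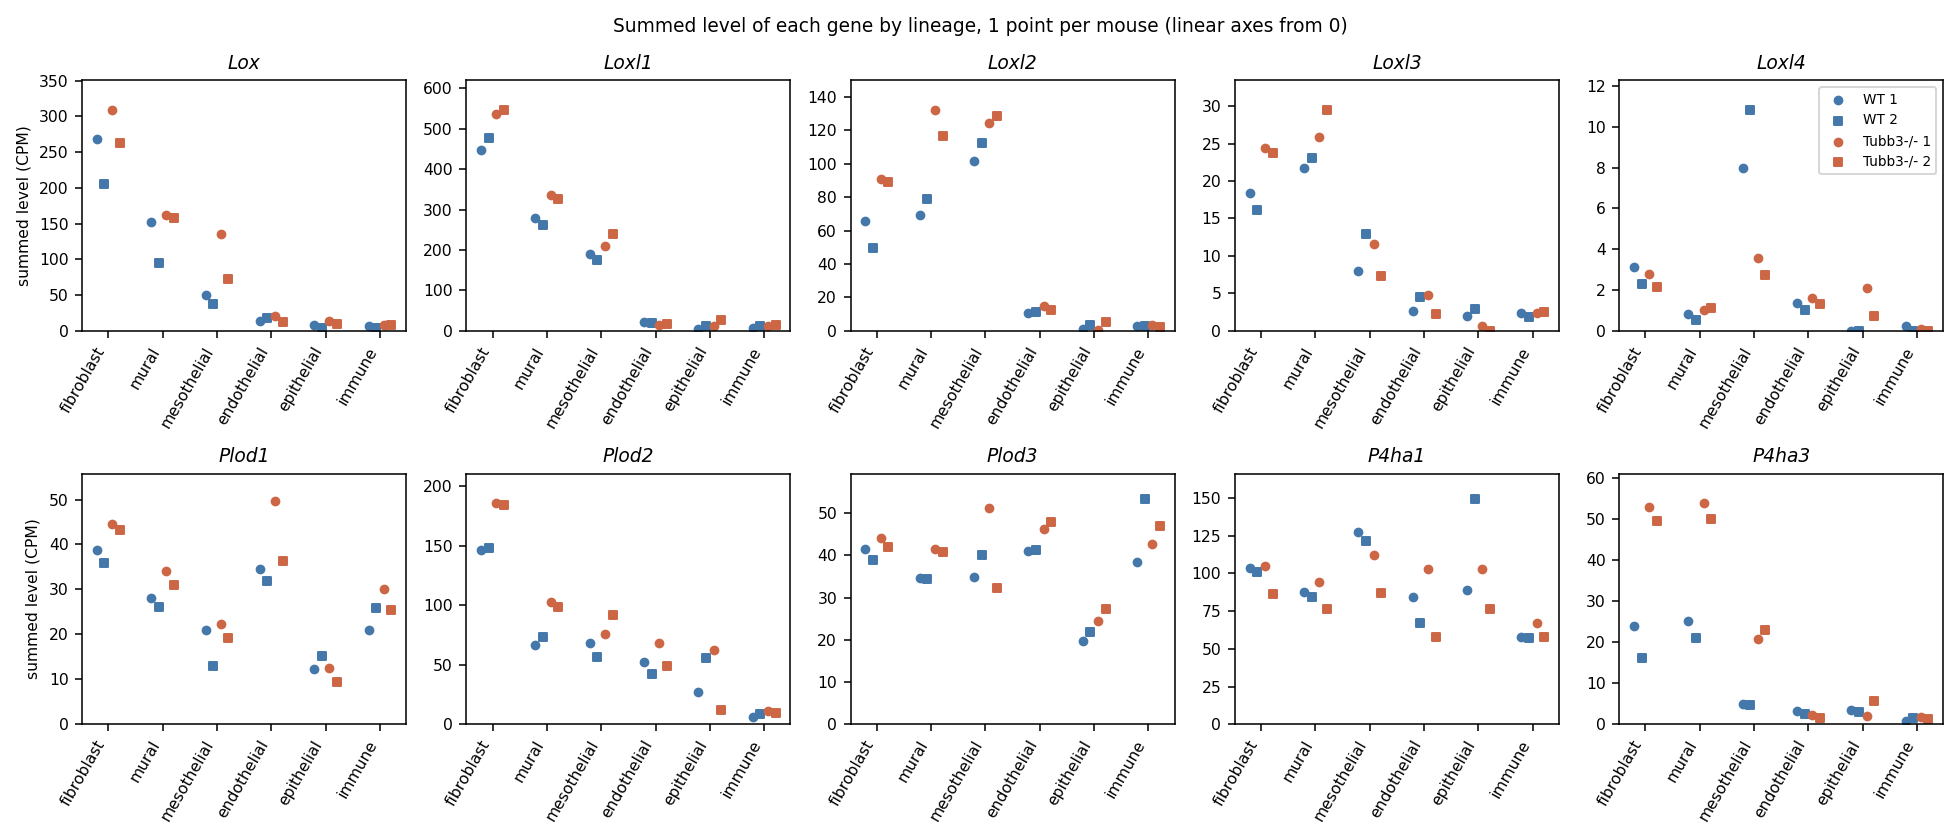
Summed level in CPM (y axis, linear from 0, with its own scale in each panel) of the 10 genes in 6 lineages (x axis), with 1 point per mouse, WT in blue and *Tubb3*-/- in orange. *Lox* and *Loxl1* are low outside fibroblasts, mural and mesothelial cells, *P4ha1* and *Plod3* do not, and *P4ha3* in fibroblasts lies at 24 and 16.1 CPM in WT against 52.9 and 49.5 CPM in *Tubb3*-/- mice.

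Each of the 5 lysyl oxidases had its highest mean level in fibroblasts, mural or mesothelial cells. *Lox*, which crosslinks collagen and elastin, averaged 261 ± 43.0 CPM (SD, n = 4 mice) in fibroblasts, 142 ± 31.5 in mural cells and 74.0 ± 43.4 in mesothelial cells, and at most 20.3 CPM in any mouse in the other lineages. The fibroblast range lay above the mural range, whereas the mural and mesothelial ranges overlapped. *Loxl1*, needed to renew elastic fibers, averaged 503 ± 47.2, 301 ± 36.3 and 204 ± 27.4 CPM in these lineages, with no overlap between them. *Loxl2*, which acts on basement membrane as well as fibrillar collagen, had another order, with 117 ± 12.3 CPM in mesothelial cells, 99.2 ± 30.0 in mural cells and 73.7 ± 19.9 in fibroblasts, and each neighboring pair of ranges overlapped. *Loxl3* was at 25.1 ± 3.40 CPM in mural cells and 20.7 ± 4.03 in fibroblasts, which overlapped. *Loxl4* was low in every lineage, with a mean of 6.29 ± 3.8 CPM in mesothelial cells and 2.59 ± 0.45 in fibroblasts, and its endothelial mean of 1.31 exceeded the mural mean of 0.87, with overlapping ranges.

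The hydroxylases had 3 kinds of pattern. *Plod2* was highest in fibroblasts at 166 ± 21.8 CPM, apart from mural cells at 85.5 ± 18.1, and was at 8.55 ± 2.0 in immune cells. *Plod1*, which hydroxylates lysines within the helix, ranged over the lineages from 12.4 ± 2.43 CPM in epithelial cells to 40.6 ± 4.08 in fibroblasts, and every neighboring pair in this order overlapped. *Plod3* lay between 37.8 and 45.3 CPM on average in 5 lineages and stood apart only in epithelial cells, at 23.3 ± 3.30. *P4ha1*, the widely expressed α subunit, was found in all lineages, from 60.1 ± 4.64 CPM in immune cells to 112 ± 17.8 in mesothelial cells, and all neighbors in its order overlapped. *P4ha3* was instead restricted, with 37.4 ± 16.8 CPM in mural cells and 35.6 ± 18.3 in fibroblasts, 13.3 ± 9.82 in mesothelial cells, and 3.54 CPM or less on average elsewhere.

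Fibroblasts were compared with each other lineage in 1 edgeR fit with mouse as a block. Against mural cells, 5 of the 10 genes were called, all higher in fibroblasts, where 44.5% of all genes tested were called 24.1% higher and 20.4% lower. These were *Loxl4* with a log2 fold change of 1.58 ± 0.38 (SE), *Plod2* with 1.05 ± 0.19, *Lox* with 0.97 ± 0.16, *Loxl1* with 0.82 ± 0.16 and *Plod1* with 0.53 ± 0.10. *Loxl2* was not called (-0.34 ± 0.14, edgeR adjusted p = 0.060), but it was called lower in fibroblasts without WT 1 (-0.47), without TMM scaling (-0.42) and with lineage genes at 2 or more UMIs (-0.39). The difference of *P4ha3* was not called either. Mural cells lacked *Pdgfra* by the rule, and their fibroblast check genes summed to 3800 to 6008 CPM.

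Against mesothelial cells, 8 of the 10 genes were called (41.8% of all genes), 7 higher (25.3%) and 1 lower (16.5%) in fibroblasts. Of the 9 members that also passed the filter on low counts within mesothelial cells, 7 were higher and 1 lower. Of the 9407 genes that did so, 2925 were higher and 1913 lower. *Lox* had a log2 fold change of 2.17 ± 0.19, and the gene called lower was *Loxl2* (-0.42 ± 0.16, edgeR adjusted p = 0.0362), whose call was lost without WT 2 (-0.24), without the mouse block (-0.38) and in cells thinned to 2000 UMIs (-0.29). *Plod3* was 0.35 ± 0.13 higher (edgeR adjusted p = 0.0362), and this call was lost in 8 of the alternatives, among them those without WT 1 (0.19), without *Tubb3*-/- 2 (0.19) and without TMM scaling (0.074). *Loxl4* was not called (-1.07 ± 0.43, edgeR adjusted p = 0.0516), but it was called lower in fibroblasts under 4 alternatives, at -1.11 to -1.40. It had too few UMIs to be tested in mesothelial cells alone. Mesothelial cells numbered 72 to 102 per mouse.

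For endothelial, epithelial and immune cells, the members were counted only where they also passed the filter on low counts within that lineage, since a gene that enters through fibroblasts alone has to be higher there. This left out *Loxl4* in all 3 lineages, and *Loxl2*, *Loxl3* and *P4ha3* in epithelial cells. Against endothelial cells 8 of 9 genes were called higher in fibroblasts, as were 33.7% of the genes tested in both lineages. Of all genes in the fit, 63.1% were called, 33.5% higher and 29.7% lower. The gene not called was *Plod3*. *Loxl1* was 5.10 ± 0.21 higher on the log2 scale, *P4ha1* 0.62 ± 0.14 and *Plod1* 0.36 ± 0.11. The *Plod1* call was lost without *Tubb3*-/- 2 (0.28), in the whole-cell libraries alone (0.31), without TMM scaling (0.096) and in thinned cells (0.18), and the *P4ha1* call in the mural cell-enriched libraries alone (0.31).

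Against epithelial cells 5 of 6 genes were called higher in fibroblasts, as were 33.5% of the genes tested in both lineages (60.1% of all genes in the fit were called, 31.9% higher and 28.1% lower). The gene not called was *P4ha1* (0.14 ± 0.15, edgeR adjusted p = 0.446), which was called higher in fibroblasts without WT 2 (0.39) and in thinned cells (0.95). Against immune cells 8 of 9 genes were called higher, as were 37.3% of the genes tested in both lineages (75.5% of all genes in the fit were called, 38.5% higher and 37% lower). The log2 fold change was 5.55 ± 0.20 for *Loxl1* and 0.72 ± 0.14 for *P4ha1*, and *P4ha1* differed by 0.03 and was not called in the mural cell-enriched libraries alone, where few immune cells remained. *Plod3* was not called (-0.12 ± 0.10, edgeR adjusted p = 0.315), but its call depended on the processing. It was called lower in fibroblasts in the whole-cell libraries alone (-0.28, edgeR adjusted p = 0.0197) and with lineage by the most UMIs (-0.37, edgeR adjusted p = 0.0011), and higher in thinned cells (0.29, edgeR adjusted p = 0.0477).

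Free RNA from broken cells adds UMIs to every droplet, so low levels were set against *Col1a1*, whose fibroblast counts would carry the other fibroblast genes along in a fixed ratio. In immune cells, *Loxl1* was at 0.67 to 0.85 times the level that their *Col1a1* would bring from fibroblasts, so it was not above this background. *Lox* was at 0.69 to 1.37 times, above it in 2 of the 4 mice. *P4ha3* in immune cells was at 0.94 to 2.93 times that level. *Plod1* was at 19.7 to 29.8 times, *Plod3* at 28.3 to 51.2 times and *P4ha1* at 17.3 to 31.0 times, above it in each mouse. This level covers free RNA from fibroblasts only. These genes were found in all lineages, so free RNA from other cells was not assessed. In endothelial cells *Loxl1* was at 0.60 to 1.47 times and *P4ha3* at 0.74 to 4.10 times that level.

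The comparison of *Tubb3*-/- with WT fibroblasts asks whether the enzymes differ when β-III tubulin is missing in an injured lung. None of the 10 genes was called by edgeR at an adjusted p under 0.05, and 0% of the 14777 genes tested were. An unadjusted p under 0.05 was reached by 4 of the 10 (*P4ha3*, *Loxl2*, *Plod2* and *Loxl3*), against 2677 of the 14777 genes tested. DESeq2 called 1 of the 10 and 503 of all genes. A block over mouse number, which also separates the male from the female mice, called these 4 genes (edgeR adjusted p = 0.0016 for *P4ha3*, 0.0099 for *Loxl2*, 0.0370 for *Plod2* and 0.0349 for *Loxl3*) and 1532 of all genes. In 7 of the 10 genes, the lower *Tubb3*-/- value exceeded the higher WT value, against 24.5% of all genes, and in none was the reverse seen (23.6%). The median log2 fold change of the 10 genes was 0.25, and that of all genes -0.00.

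*P4ha3* had the largest difference of the 10. It was at 24, 16.1, 52.9 and 49.5 CPM, and the genotypes did not overlap. The log2 fold change was 1.34 ± 0.22 (95% interval 0.80 to 1.88, edgeR adjusted p = 0.0953). In the whole-cell libraries alone it was at 20.5, 12.3, 50.3 and 41.5 CPM, and in the mural cell-enriched libraries alone at 25.4, 18.0, 54.5 and 53.8, so both kinds of library had this order. It was detected in 22.3%, 14.0%, 41.4% and 39.1% of fibroblasts, and in 3.37%, 2.83%, 8.76% and 7.11% once each cell was thinned to 2000 UMIs, where immune cells, which should lack it, had 0.0857% to 0.345%. Median depth was 16345, 14687, 19212 and 18336 UMIs per fibroblast. Leaving out WT 1 gave a log2 fold change of 1.72 and leaving out WT 2 gave 1.06, each with a lone WT mouse whose spread was not measured.

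*Loxl2* was at 65.6, 49.3, 90.9 and 89.1 CPM, without overlap (0.63 ± 0.17, edgeR adjusted p = 0.170). *Loxl3* was at 18.4, 16.1, 24.4 and 23.7 CPM (0.47 ± 0.13, edgeR adjusted p = 0.177). With 1 mouse left out, the log2 fold change ran from 0.42 to 0.92 for *Loxl2* and from 0.35 to 0.63 for *Loxl3*. *Plod2* was at 147, 148, 186 and 184 CPM, without overlap (0.32 ± 0.09, edgeR adjusted p = 0.173). Smaller differences without overlap were those of *Plod1* (0.23 ± 0.11), *Loxl1* (0.22 ± 0.10) and *Plod3* (0.09 ± 0.11). *Lox* overlapped, at 268, 205, 309 and 263 CPM (0.27 ± 0.19).

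*P4ha1* and *Loxl4* did not share this order. *P4ha1* was at 103, 101, 105 and 86.2 CPM, with a log2 fold change of -0.10 ± 0.13 and a 95% interval of -0.42 to 0.22. *Loxl4* was at 3.14, 2.27, 2.79 and 2.17 CPM (-0.13 ± 0.31). The sign turned without *Tubb3*-/- 2 for both genes (0.069 and 0.067), and for *Loxl4* also without WT 1 (0.18). The 9 mural check genes summed to 420, 400, 744 and 571 CPM in fibroblasts, so they moved with genotype too, with the defining *Higd1b* and *Myh11* at 0 by the rule, and their part in these values was not tested.

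**Figure D2:**
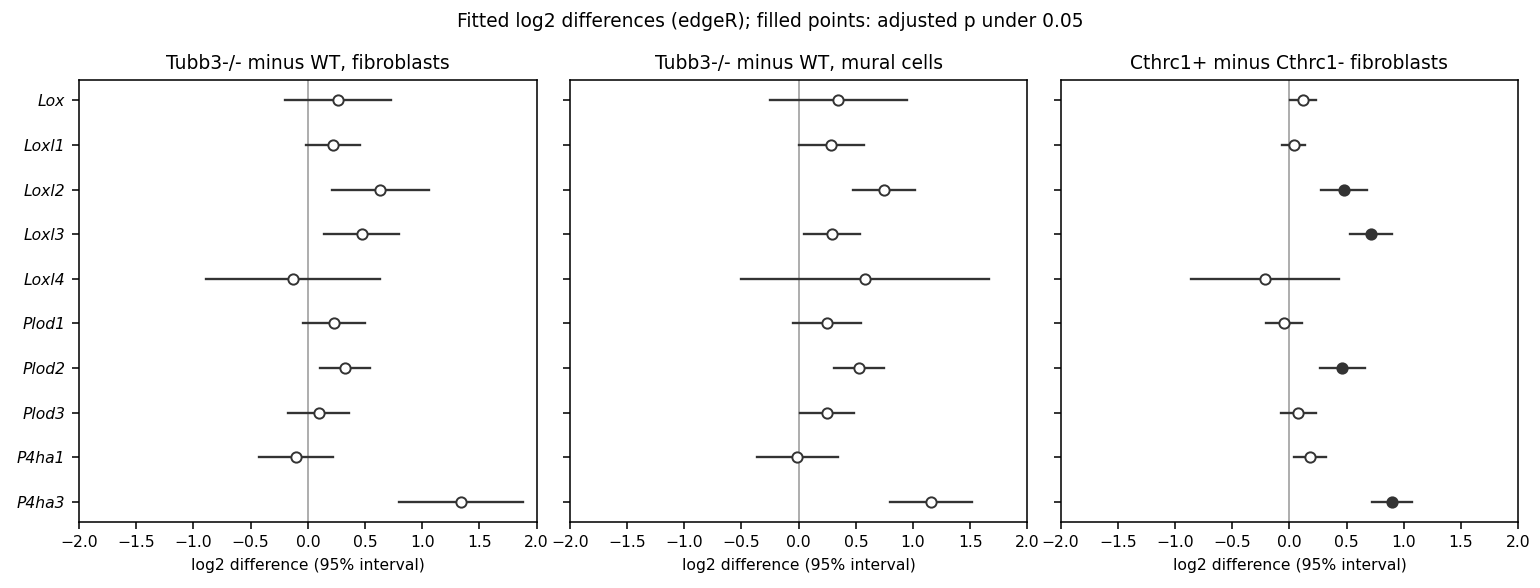
Fitted log2 differences (x axis) with 95% intervals for the 10 genes (y axis) in 3 comparisons, from edgeR, with filled points for an adjusted p under 0.05. *P4ha3* is farthest from 0 among the 10 in each panel, at 1.34 and 1.16 between the genotypes and 0.90 between Cthrc1+ and Cthrc1- fibroblasts, and points are filled only in the last panel.

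In mural cells the largest differences among the well-counted genes were again those of *P4ha3*, *Loxl2* and *Plod2*. *P4ha3* was at 25.0, 20.9, 53.8 and 49.8 CPM (1.16 ± 0.15, edgeR adjusted p = 0.138). *Loxl2* was at 69.5, 78.6, 132 and 116 CPM (0.75 ± 0.11, edgeR adjusted p = 0.158), and *Plod2* at 66.6, 73.6, 103 and 98.7 CPM (0.52 ± 0.09, edgeR adjusted p = 0.186). None of these overlapped between genotypes. edgeR called 0 of the 10 genes (0% of all genes), and 6 had an unadjusted p under 0.05 (1583 of 14441 of all genes). DESeq2 called 3 of the 10 and 159 of all genes. The block over mouse number called *P4ha3*, *Loxl2* and *Plod2* (edgeR adjusted p = 0.0007, 0.0036 and 0.0103) and 570 of all genes. The genotypes were apart, with *Tubb3*-/- higher, in 9 of the 10 genes, all but *P4ha1*, against 22.1% of all genes (18.6% for *Tubb3*-/- lower).

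Other genes had smaller differences in mural cells. The log2 fold change was 0.35 ± 0.24 for *Lox*, 0.29 ± 0.12 for *Loxl1*, 0.29 ± 0.10 for *Loxl3*, and 0.25 ± 0.12 and 0.25 ± 0.10 for *Plod1* and *Plod3*. *Lox* depended on WT 2, at 153, 95, 163 and 157 CPM, and its log2 fold change was 0.01 without WT 2 and 0.81 without WT 1. That of *P4ha3* was 1.37 without WT 1 and 0.99 without WT 2. Those of *Loxl2* and *Plod2* were 0.78 and 0.54 without WT 2. The median of the 10 genes was 0.32, and of all genes 0.00. The 7 fibroblast check genes, *Col1a1* and *Col1a2* among them, summed to 4357, 3800, 6008 and 5536 CPM in mural cells, with *Pdgfra* at 0 by the rule, and their part in these values was not tested.

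In mesothelial cells, *P4ha3* was at 4.98, 4.74, 20.6 and 23.0 CPM, from 5, 7, 23 and 25 UMIs (2.14 ± 0.42, edgeR adjusted p = 0.118). *Lox* was at 50.8, 37.2, 135 and 72.6 CPM (1.27 ± 0.32, edgeR adjusted p = 0.218). *Loxl4*, too low to be tested, was at 7.97, 10.8, 3.58 and 2.76 CPM, from 8, 16, 4 and 3 UMIs. *P4ha1* lay lower in both *Tubb3*-/- mice, at 127, 122, 112 and 87.3 CPM. None of the 9 genes tested was called by edgeR (0.231% of all genes, 0.21% higher and 0.021% lower) or DESeq2. An unadjusted p under 0.05 was reached by 2 (797 of 9527 of all genes). The genotypes were apart in 6, with *Tubb3*-/- higher in 5 (18.9% of all genes) and lower in 1 (18.6%). With 1 mouse left out, the log2 fold change ran from 2.10 to 2.19 for *P4ha3* and from 0.71 to 1.68 for *Lox*.

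The mesothelial *P4ha3* values depended on how cells were assigned. When a cell with several lineage genes went to the one with the most UMIs, they were 0.895, 2.75, 2.89 and 4.92 CPM, with a log2 fold change of 1.01. The fibroblast check genes *Lum* and *Col1a2*, as well as *Cthrc1*, were called higher in *Tubb3*-/- mesothelial cells (edgeR adjusted p = 0.0221, 0.0442 and 0.0499), and the 7 fibroblast check genes summed to 4179 to 6620 CPM there. A list of 7 genes of fibrotic fibroblasts (*Cthrc1*, *Postn*, *Runx1*, *Tnc*, *Spp1*, *Col12a1* and *Fap*) summed to 491, 192, 8178 and 538 CPM. In immune cells the list summed to 1898, 1608, 4068 and 3599 CPM. The part of these genes in the *P4ha3* and *Lox* values was not tested. The block over mouse number called both *P4ha3* and *Lox* (edgeR adjusted p = 0.0016 and 0.0001).

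In endothelial, epithelial and immune cells, edgeR and DESeq2 called 0 of the 9, 6 and 9 genes tested, and edgeR called 0% of all genes in each. Among these members 0 had an unadjusted p under 0.05 (1721 of 12707, 445 of 10420 and 1178 of 14043 of all genes). In endothelial cells, *Loxl1* lay at 21.1, 20.1, 15.3 and 15.9 CPM and *P4ha3* at 3.15, 2.52, 2.16 and 1.48, both lower in the *Tubb3*-/- mice (2 of 9 genes, against 23.8% of all genes) and at or below the *Col1a1*-based background in 3 and 2 of the 4 mice, while *Plod1*, *Plod3* and *Loxl2* were higher in both (3 of 9, against 21.1%). In immune cells 5 of 9 genes were higher in both *Tubb3*-/- mice (19.1% of all genes), and in epithelial cells 2 of 6 (21.6%). Of the 5 in immune cells, *Loxl1* was above the *Col1a1*-based background in 0 of the 4 mice and *Lox* in 2. *P4ha3* values of *Tubb3*-/- mice thus lay wholly above those of WT mice in fibroblasts, mural and mesothelial cells, and whether its genotype difference varies between lineages was not tested.

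The share of Cthrc1+ cells among fibroblasts was 21.0%, 17.4%, 31.9% and 29.0%, without overlap, and an exact two-sided permutation test gave p = 0.333, the smallest value that 2 against 2 mice allow. The genotypes were also compared within each class. The 7 genes of fibrotic fibroblasts still moved with genotype there, at 2421, 1247, 6840 and 4201 CPM in Cthrc1+ cells. In Cthrc1- cells, where *Cthrc1* was at 0 by the rule, they summed to 670, 457, 1524 and 1506 CPM. In immune cells the same list, which includes *Spp1*, summed to 1898, 1608, 4068 and 3599 CPM, so it is not particular to fibroblasts. Its part in the members' values was not tested. In Cthrc1+ cells, *P4ha3* was at 40.3, 23.5, 75.0 and 66.4 CPM (1.15 ± 0.25, edgeR adjusted p = 0.146). In Cthrc1- cells it was at 18.9, 14.3, 40.7 and 41.1 CPM (1.27 ± 0.17, edgeR adjusted p = 0.0715). In both classes the genotypes did not overlap. With the classes weighted equally in each mouse, the log2 ratio of the mean CPM was 1.2, against 1.35 for the cells as found.

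*Plod2* had another pattern. In Cthrc1+ cells it was at 168, 162, 238 and 238 CPM (0.56 ± 0.11, edgeR adjusted p = 0.137), but in Cthrc1- cells at 140, 145, 157 and 158 CPM (0.12 ± 0.09, edgeR adjusted p = 0.573). In cells assigned as before and then thinned to 2000 UMIs it was detected in 22.5%, 21.3%, 36.4% and 30.7% of the Cthrc1+ and in 23.0%, 25.7%, 24.2% and 21.1% of the Cthrc1- cells. The difference between the classes was 0.46 ± 0.09 (unadjusted p = 0.0008, edgeR adjusted p = 0.276). With 1 mouse left out, this difference ran from 0.40 to 0.49. When the cells were thinned before they were assigned, both values turned, to -0.52 in Cthrc1+ cells and -0.51 for the difference, with only 29, 18, 38 and 45 *Plod2* UMIs left in the Cthrc1+ cells. *Loxl2* differed by 0.79 ± 0.16 in Cthrc1+ cells (edgeR adjusted p = 0.133) and 0.46 ± 0.19 in Cthrc1- cells (edgeR adjusted p = 0.306), and *Loxl3* by 0.46 ± 0.17 and 0.33 ± 0.12.

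edgeR called 0 of the 10 genes in either class (0% of all genes in Cthrc1+ and 0.0071% in Cthrc1- cells). An unadjusted p under 0.05 was reached by 4 and 3 genes (1745 of 12208 and 2255 of 14091 of all genes), and DESeq2 called 2 and 1. The block over mouse number called 3 (*Loxl2*, *P4ha3* and *Plod2*) and 1 (*P4ha3*). How many of all genes DESeq2 and the block called in these classes is not given here. The *Tubb3*-/- values were wholly above the WT values in 5 genes in Cthrc1+ cells (20.3% of all genes) and 7 in Cthrc1- cells (26.4%). They were wholly below in 1 gene each, *Loxl4* (26.1%) and *P4ha1* (20.8%). Without WT 1, *Loxl2*, *P4ha3* and *Plod2* were called in Cthrc1+ cells, at 0.96, 1.66 and 0.63, and *Loxl2* and *P4ha3* in Cthrc1- cells, at 0.77 and 1.55. Without WT 2, *P4ha3* was called in Cthrc1- cells, at 1.05. The genotype difference of the Cthrc1 contrast was called for 0 of the 10 genes by edgeR and DESeq2 (0.00742% of all genes by edgeR). Only *Plod2* had an unadjusted p under 0.05 (892 of 13476 of all genes).

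In the fit with mouse as a block, edgeR called 4 of the 10 genes higher in Cthrc1+ than in Cthrc1- fibroblasts and none of the 10 lower. Of all genes, 6.53% were called higher, 5.42% lower and 12% in either direction. *P4ha3* had the largest difference, 0.90 ± 0.08 on the log2 scale (edgeR adjusted p = 0.000113), with per-mouse log2 ratios of 1.10, 0.72, 0.88 and 0.69. *Loxl3* followed with 0.72 ± 0.08 (edgeR adjusted p = 0.000570) and ratios of 0.73, 0.47, 0.72 and 0.66. All 4 mice had the same direction for each of these genes.

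*Loxl2* was 0.48 ± 0.09 higher (edgeR adjusted p = 0.00852), with ratios of 0.18, 0.40, 0.72 and 0.34, and *Plod2* 0.46 ± 0.09 (edgeR adjusted p = 0.00791), with 0.27, 0.16, 0.60 and 0.59. The *Plod2* call was lost without *Tubb3*-/- 1 (0.38, edgeR adjusted p = 0.0610) or *Tubb3*-/- 2 (0.39, edgeR adjusted p = 0.0648). DESeq2 called 4 genes as well, and how many of all genes it called is not given here.

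The 6 remaining genes were not called. *P4ha1* differed by 0.18 ± 0.06 (edgeR adjusted p = 0.0968) and was higher in 4 of 4 mice. *Lox* differed by 0.12 ± 0.05 (edgeR adjusted p = 0.187), *Plod3* by 0.08 ± 0.07, *Loxl1* by 0.04 ± 0.05, *Plod1* by -0.05 ± 0.07 and *Loxl4* by -0.21 ± 0.29. The 95% intervals of *Lox*, from 0.0029 to 0.23, and *Loxl1*, from -0.07 to 0.14, lay wholly below that of *P4ha3*, from 0.72 to 1.07. The median of the 10 genes was 0.15, and that of all genes -0.01. Cthrc1+ cells were somewhat deeper than Cthrc1- cells, with medians of 17910, 14946, 20963 and 20716 against 15859, 14653, 18402 and 17243 UMIs. Among the 9 mural check genes, 3 (*Cspg4*, *Acta2* and *Pdgfrb*) were called higher in Cthrc1+ cells, with *Higd1b* and *Myh11* at 0 by the rule. The list summed to 549 to 1066 CPM in Cthrc1+ and 363 to 566 CPM in Cthrc1- cells, and its part in these differences was not tested.

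**Figure D3:**
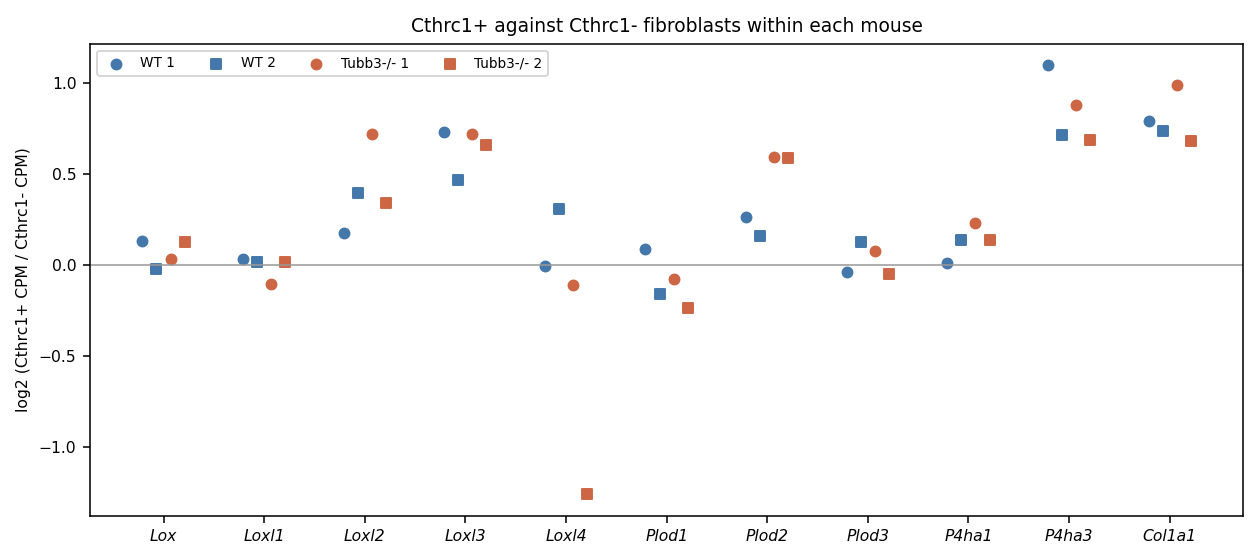
Log2 ratio of the CPM in Cthrc1+ to that in Cthrc1- fibroblasts (y axis) for the 10 genes and *Col1a1* (x axis), with 1 point per mouse, WT in blue and *Tubb3*-/- in orange. All 4 mice lie above 0 for *P4ha3*, *Loxl3*, *Loxl2*, *Plod2*, *P4ha1* and *Col1a1*, and *Lox* and *Loxl1* lie close to 0.

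The other genes of collagen synthesis were counted in the same contrast, where edgeR called 6.53% of all genes higher and 5.42% lower. Of the 13 partners in hydroxylation and glycosylation, 8 were called higher and 1 lower in Cthrc1+ cells by edgeR (median 0.19), while DESeq2 called 4 of the 13, with *P3h2*, a prolyl 3-hydroxylase, at 1.38 ± 0.33 and the galactosyltransferase *Colgalt2* at -0.89 ± 0.25. *P4ha2*, the remaining α subunit, was 0.59 ± 0.08 higher, *P4hb* 0.18 ± 0.05 and the collagen chaperone *Serpinh1* 0.19 ± 0.05. All 8 fibrillar collagen and elastin genes tested were higher (median 0.60), from *Col11a1* at 4.89 ± 0.32, while *Col1a1* was 0.85 ± 0.06 higher. Of 6 genes of procollagen export, edgeR and DESeq2 called 0 and 1 had an unadjusted p under 0.05 (median 0.03).

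Of 7 procollagen processing genes tested, 2 were called higher (*Tll1* at 2.21 ± 0.37 and *Bmp1*, which cleaves procollagen and prolysyl oxidase, at 0.65 ± 0.07) and 2 lower (*Pcolce2* at -0.45 ± 0.07 and *Adamts2* at -0.24 ± 0.07). Of 9 genes that load or place lysyl oxidases or help matrix assembly, 3 were higher, led by *Postn* at 2.81 ± 0.08 and *Fmod* at 2.06 ± 0.15, and 2 lower, *Tgm2* at -0.51 ± 0.07 and *Ltbp4* at -0.35 ± 0.05. Of 10 TGF-β-induced genes, 6 were called, all higher (median 0.39), led by *Tnc* at 1.18 ± 0.08 and *Ltbp2* at 1.03 ± 0.08. Of 14 hypoxia-induced genes tested, 1 was higher, *Ndrg1* at 0.67 ± 0.08, and 1 lower, *Pfkfb3* at -0.35 ± 0.08 (median 0.07), and DESeq2 called 1.

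Between the genotypes edgeR called 0 of the 67 genes of these 7 lists tested in fibroblasts and 0 of 68 in mural cells, as 0% of all genes were. In each lineage 29 of them had an unadjusted p under 0.05 (2677 of 14777 and 1583 of 14441 of all genes), and DESeq2 called 15 and 7. In fibroblasts the median log2 fold change was 0.56 for fibrillar collagens and elastin, 0.29 for the hydroxylation partners, 0.32 for TGF-β-induced genes, -0.05 for hypoxia-induced genes, -0.01 for export and for processing, and -0.16 for loading and assembly. In mural cells it was 0.71 for the collagens and 0.39 for the partners. *Col1a1* differed by 0.73 ± 0.28 in fibroblasts (edgeR adjusted p = 0.258) and 0.95 ± 0.16 in mural cells, and *P4ha2* by 0.24 ± 0.26 and 0.02 ± 0.16.

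The enzymes were also set against their substrate, as UMIs per 1000 UMIs of *Col1a1*, *Col1a2* and *Col3a1* in the same cells, which is a ratio of summed counts given without a test. The summed collagen level was 11060, 7776, 14592 and 14251 CPM in fibroblasts. Per 1000 collagen UMIs, *P4ha3* was at 2.17, 2.06, 3.62 and 3.47 in fibroblasts and at 6.52, 5.90, 8.62 and 8.0 in mural cells. It was the only one of the 10 genes that lay above both WT mice in both *Tubb3*-/- mice on this scale, and it did so in fibroblasts, in both Cthrc1 classes, in mural and in mesothelial cells.

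*P4ha1* had the opposite order, at 9.36, 13, 7.21 and 6.05 per 1000 in fibroblasts and 22.8, 23.8, 15.2 and 12.2 in mural cells, and it was lower in both *Tubb3*-/- mice in the same 5 populations. *Loxl2* was level with collagen in fibroblasts, at 5.93, 6.34, 6.23 and 6.25, and overlapped in mural cells. In fibroblasts 7 of the 10 genes were lower in both *Tubb3*-/- mice on this scale, *Lox*, *Loxl1* and *Plod2* among them, 2 overlapped and 1 was higher. The mean collagen sum was itself 1.53 times as high in *Tubb3*-/- fibroblasts, so a gene with a flat CPM lies lower on this scale. The share of all genes that did so was not counted, so these counts are not particular to the members.

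**Figure D4:**
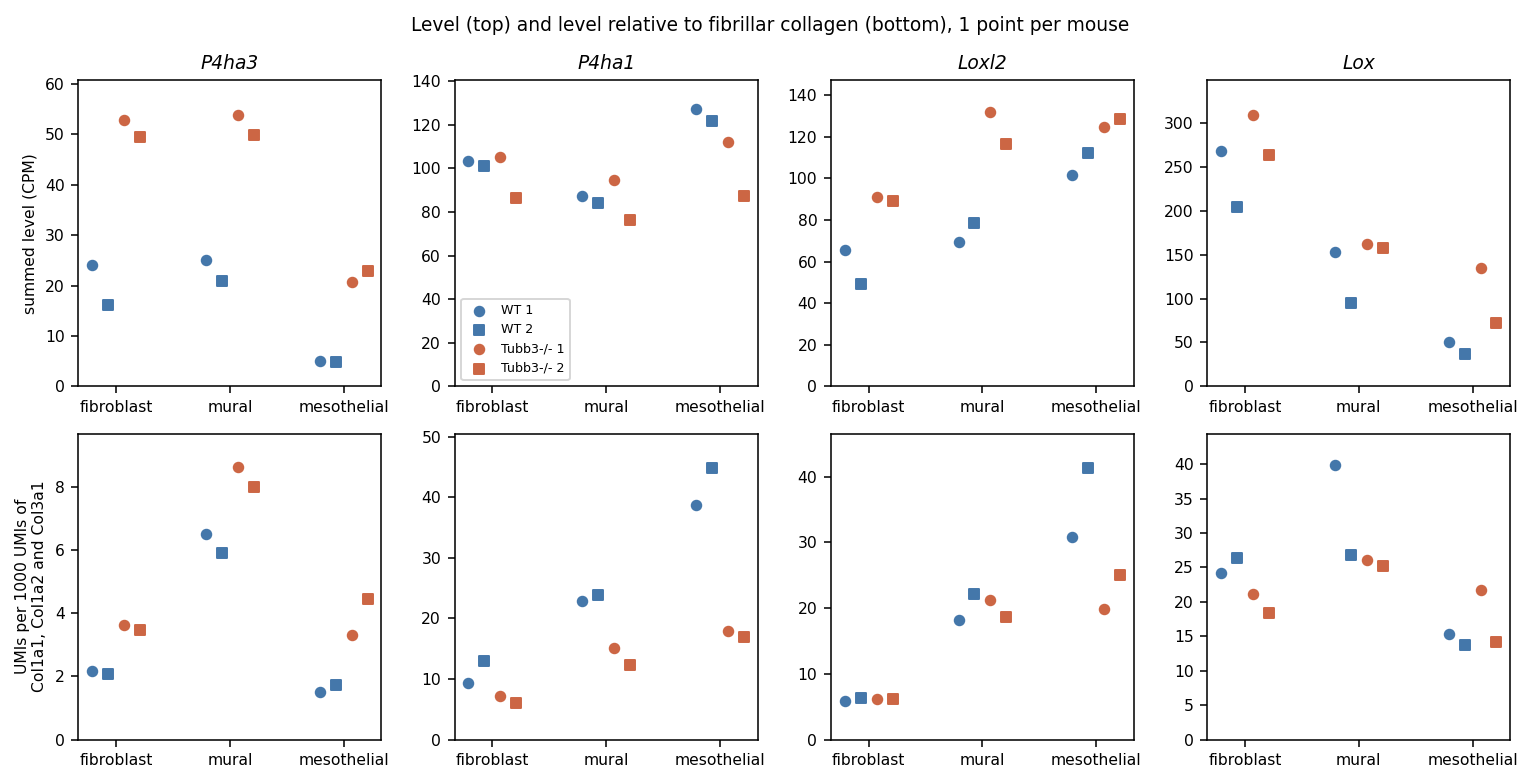
Summed level in CPM (top) and UMIs per 1000 UMIs of *Col1a1*, *Col1a2* and *Col3a1* (bottom) of *P4ha3*, *P4ha1*, *Loxl2* and *Lox* in 3 lineages (x axis), with 1 point per mouse and linear y axes from 0. In fibroblasts *P4ha3* stays above WT relative to collagen, at 3.62 and 3.47 against 2.17 and 2.06, whereas *P4ha1* lies lower, at 7.21 and 6.05 against 9.36 and 13.

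Over 28 profiles (6 lineages, with fibroblasts split by *Cthrc1*, in 4 mice), the genes most like each member among the 9841 genes that averaged 10 CPM or more were found by Pearson's r of log2 (CPM + 1), as a description in which profiles of a mouse share libraries. *P4ha3* was closest to *Ltbp2* (0.96), a latent TGF-β binding protein, *Fzd1* (0.95) and *Kdelr3* (0.95). *Lox* was closest to *Col5a1* (0.98), *P3h3* and *Mgp*, and *Loxl1* to *Col3a1* (0.99), *Bgn* and *Prelp*. *Loxl2* was closest to *Selenom* (0.99), *Emc10* and *Sema3d*, *Loxl3* to *Dact1* (0.96), *Prrx1* and *Ccn4*, and *Plod2* to *Gpx7* (0.96), *Sparc* and *Mpv17*. The values were lower for *Loxl4* (*Sntg1*, 0.90), *Plod1* (*Pros1*, 0.90), *Plod3* (*Vat1*, 0.88) and *P4ha1* (*Hspb8*, 0.82). Among the members themselves, r was highest for *Lox* and *Loxl1* (0.97) and lowest for *P4ha1* and *Plod3* (-0.31).

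The genes lie on 9 chromosomes in mm10 (GENCODE vM21), among them *P4ha3* at chr7:100285520-100319699 (+), *P4ha1* at chr10:59323296-59373304 (+), *Plod2* at chr9:92542223-92608428 (+), *Loxl1* at chr9:58287738-58313186 (-), *Loxl2* at chr14:69609068-69695834 (+) and *Loxl3* at chr6:83034173-83052562 (+). *Loxl1* and *Plod2* share a chromosome. Genes on the opposite strand overlap *Lox*, *Loxl2*, *Loxl3* and *Plod3*, and as the use of strand in counting is not given in the sources used here, their counts are uncertain to that extent.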

How the data were processed

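The authors deposited, for each of 8 libraries, UMI counts per gene and cell, made with Cell Ranger 7.1.0 on mm10 and split by tag, per the submitters' processing notes. These counts are whole numbers without normalization, and tag rows were left out. Cells with 200 to 7500 genes and at most 15% mitochondrial UMIs were kept, and 969 cells marked by Scrublet (scanpy 1.11.5) were removed. The automatic threshold failed in the whole-cell pool and that of the other pool (0.213) was used. Library depth was 9186 to 16299 median UMIs per cell, and fibroblasts held 13649862 to 21169277 UMIs per mouse. Counting error therefore mattered for low genes such as *Loxl4* more than for the others.

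UMIs were summed per mouse and lineage over both libraries. After filterByExpr and TMM scaling, the sums were fitted with the quasi-likelihood F test of edgeR 4.0.16 (R 4.3.3). P-values were adjusted by Benjamini-Hochberg across every gene in the fit, with a threshold of 0.05. The Cthrc1 and lineage contrasts had mouse as a block. Alternatives were DESeq2 1.42.0, other scaling, no filter, the replicate block, each mouse left out, each kind of library alone, stricter gates and thinned cells. Lineage by the most UMIs and equal class weights were added after seeing the data. On simulated counts, 89% of 200 genes changed by a log2 value of 1 were recovered among 14830 genes for genotype in fibroblasts and 82.5% among 13459 for the Cthrc1 contrast. In the simulation each gene varied on its own, without shared differences of sex or mouse. The real genotype fit in fibroblasts called 0 of 14777 genes, so the recovered share does not measure the power of that fit.

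Named were the 10 genes, *Tubb3* and *Cthrc1*, per list up to 2 called genes with the largest rise and fall, *Col1a1*, *P4ha2*, *P4hb*, *Serpinh1* and *Bmp1*, and for each member the 3 most similar genes. *Lum*, *Col1a2* and the called mural check genes were named after their values were seen. The members and lists were chosen with earlier results of these data known.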

Additional observations from a re-analysis of the deposited data

How the results depend on the processing

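With 2 mice per genotype, the count of members called between genotypes (0 in every lineage in the edgeR fits reported) was the least stable result. DESeq2 called 1 in fibroblasts, 2 in Cthrc1+, 1 in Cthrc1- and 3 in mural cells. A replicate block over same-numbered mice gave 4, 3, 1 and 3, and 2 in mesothelial cells, but the labels do not pair the mice by number. In these data the number separates the male from the female mice (correlation of deviations 0.38 in fibroblasts and 0.35 in mural cells, from 2 pairs). Over all genes in fibroblasts the block called 1532, DESeq2 503 and the fit without a block 0, and in mural cells 570, 159 and 0. Without the low-count filter the counts were 3 in Cthrc1+, 1 in Cthrc1-, 3 in mural and 2 in mesothelial cells, and 1 for the genotype difference of the Cthrc1 contrast. With lineage by the most UMIs they were 1 in Cthrc1+ and 1 in mural cells. Among the alternatives, counts of all genes called are given here only for DESeq2 and the block in fibroblasts and mural cells. In the other alternatives, those with 1 mouse left out included, the member counts thus do not show whether the members stand out. With 1 mouse left out the count ran from 0 to 3 in fibroblasts, 0 to 3 in Cthrc1+, 0 to 2 in Cthrc1-, 0 to 3 in mural and 0 to 2 in mesothelial cells, and 0 to 1 for the genotype difference, and the lone mouse was then assumed to vary like the others. All calls made in this way without 1 mouse in fibroblasts and mural cells arose without a WT mouse. In endothelial, epithelial and immune cells it was 0 throughout. In the Cthrc1 contrast it was 3 to 5 over all alternatives, where *P4ha1* was the fifth with lineage by the most UMIs (adjusted p = 0.0366, edgeR), *Loxl2* was not called without the mouse block (no replicate block, adjusted p = 0.111, edgeR), and *Loxl3* was not called in thinned cells (adjusted p = 0.108, edgeR).

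Some signs turned. In cells thinned to 2000 UMIs, where the lineages were assigned anew, the log2 fold change was -0.0033 for *Plod3* in fibroblasts, -0.52 for *Plod2* in Cthrc1+ cells and -0.51 for its difference between classes, -0.050 for *Loxl1* and -0.38 for *Plod3* in the Cthrc1 contrast, and 0.29 for *Plod3* against immune cells. In that contrast, whole-cell libraries alone gave -0.077 for *Lox* and 0.062 for *Plod1*, and a Cthrc1 gate of 2 UMIs gave 0.022 for *Plod1*. *P4ha1* against epithelial cells was -0.067 without TMM and -0.034 in the enriched libraries. With 1 mouse left out, *Loxl4* in fibroblasts ran from -0.37 to 0.18, *P4ha1* from -0.27 to 0.069, and *Loxl4* in the Cthrc1 contrast from -0.33 to 0.065. The causes were not tested.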

Other observations

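Cells that matched several lineages and were left out held much of the members' signal. In the mural cell-enriched libraries, where they were 51.7% of cells, they held 64.6% of the *Lox* and 61.5% of the *P4ha3* UMIs, and in the whole-cell libraries, where they were 38.3% of cells, 51.3% and 48.3%. Of 11831 cells with a *Pdgfra* UMI, 8047 were left out in this way. These had a median of 19064 UMIs against 17030 in the cells kept, and 28.2% against 25.3% had a *Cthrc1* UMI. Of the 11831 cells, 5671 held *Myh11*, 2833 of them with 1 UMI, and 2173 held *Msln*, 1733 of them with 1 UMI. The fibroblasts compared thus hold no cells with a *Myh11* UMI, and the effect of this was not tested.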
